A study of Mus musculus with 10 samples.

Results

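Kinesins are the motor proteins that walk along microtubules, and the genes described here are the 47 protein-coding mouse genes whose GRCm38 annotation symbol begins with Kif followed by a number, Kifc or Klc, out of 21998 protein-coding genes counted. They were sorted by known role into 18 transport motors, 4 light chains, 14 mitotic kinesins and 11 other members (ciliary kinesins, depolymerases, the kinesin-binding protein Kif1bp and less studied genes). Kif1bp fits the symbol pattern although it is a kinesin-binding protein and not a motor. Their counts came from translating ribosome affinity purification (TRAP), in which a ribosomal protein tagged with green fluorescent protein, EGFP-L10a, is made in genetically chosen cells and pulled down with its bound mRNA.

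All 10 libraries came from C57BL/6 mice of the genotype Drd2-Cre;Eef1a1LSL.eGFPL10a/+, about 10 weeks old, with no untagged or treated group. They comprised 5 libraries from dorsal and 5 from ventral hippocampus, and each was a pool of tissue from 5 mice, so that the replicates are pools and not mice. The paper describes each hippocampus as cut into a dorsal and a ventral part before pooling, so that the 2 groups share mice. Which pools share mice is not stated, and the main test treated the libraries as independent. Drd2-Cre marks mossy cells, the excitatory neurons of the dentate hilus, together with some interneurons and subicular neurons, and the ventral subiculum was dissected away. The question was how the mRNA on the ribosomes of these cells differs between the dorsal and ventral parts of the hippocampus. By the paper's account the ventral part was the longer one, so that it is not the ventral end alone. Of 9 mossy cell markers 8 were expressed enough to be tested, and Csf2rb2 was not, with at most 22 counts and none in 1 library. At an adjusted p below 0.05, 3 were higher in dorsal libraries (19.0% of all tested genes) and 2 were lower (14.6%), while Drd2, Calcrl and Nmb did not pass, and the summed level of the 9 was 1775 to 1993 CPM dorsally and 1859 to 2036 CPM ventrally. Gria2 (log2 fold change 0.81) and Gria3 (0.70) were higher and Satb1 (-0.74) was lower in dorsal libraries. Once GC content and length were corrected for, Gria2 was at -0.28 and Gria3 at 0.14, and neither was called. The ventral mossy cell marker Calb2 was lower in dorsal libraries (log2 fold change -3.24 ± 0.14 SE, quasi-likelihood adjusted p = 1.06e-08), and the dorsal marker Cyp26b1 was higher (1.05 ± 0.15, quasi-likelihood adjusted p = 2.5e-04).

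A neuron makes most of its proteins and vesicles in the cell body and sends them along the axon and dendrites on microtubules. Kinesin-1 is a tetramer of heavy chains (Kif5a, Kif5b, Kif5c), which hold the motor, and light chains (Klc genes), which bind cargo. Kinesin-2 motors pair Kif3a with Kif3b or Kif3c, and kinesin-3 motors of the Kif1 and Kif13 groups carry synaptic vesicle precursors, dense-core vesicles and endosomes. Mitotic kinesins build and move the spindle of dividing cells, and ciliary kinesins serve cilia and flagella. Dynein, with its activator dynactin, carries cargo in the opposite direction along the axon.

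Promoter sequence was available from RefSeq (GRCm38.p6) for 36 of the 47 genes, in 40 windows of the 250 bases before a transcription start. The windows were rich in CpG, with a median of 22 CpG each against 6 over all 32851 windows, and a median GC content of 64.4% against 52.4%. Short motifs were searched on both strands, and capitals mark every match. The cyclic AMP response element TGACGTCA was found in 3 of 40 kinesin windows (Kif5c, Klc1 and Kif17), and in 1.55% of all windows. The windows of 4 genes follow, 5′ to 3′ in the direction of the gene. Kif5c and Klc1 are shown because they were the most abundant heavy and light chain and share TGACGTCA, Kif1c because it was higher in dorsal libraries, and Kif11 as an example of a mitotic kinesin.
Kif5c, chr2:49619036-49619285, plus strand: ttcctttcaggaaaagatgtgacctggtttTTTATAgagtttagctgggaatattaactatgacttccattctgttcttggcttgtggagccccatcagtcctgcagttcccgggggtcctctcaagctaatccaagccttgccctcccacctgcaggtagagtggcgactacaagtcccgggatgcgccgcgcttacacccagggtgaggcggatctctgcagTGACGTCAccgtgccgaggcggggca
Klc1, chr12:111758618-111758867, plus strand: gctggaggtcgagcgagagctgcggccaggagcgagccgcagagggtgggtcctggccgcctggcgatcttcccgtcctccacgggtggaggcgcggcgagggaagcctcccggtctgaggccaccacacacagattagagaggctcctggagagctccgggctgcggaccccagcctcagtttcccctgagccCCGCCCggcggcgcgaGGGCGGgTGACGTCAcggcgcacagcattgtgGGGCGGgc
Kif1c, chr11:70700298-70700547, plus strand: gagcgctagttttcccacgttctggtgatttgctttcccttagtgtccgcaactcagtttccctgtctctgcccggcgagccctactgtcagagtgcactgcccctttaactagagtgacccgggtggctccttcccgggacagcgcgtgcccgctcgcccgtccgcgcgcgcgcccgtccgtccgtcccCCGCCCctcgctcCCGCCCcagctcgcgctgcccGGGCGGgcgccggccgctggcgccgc
Kif11, chr19:37376132-37376381, plus strand: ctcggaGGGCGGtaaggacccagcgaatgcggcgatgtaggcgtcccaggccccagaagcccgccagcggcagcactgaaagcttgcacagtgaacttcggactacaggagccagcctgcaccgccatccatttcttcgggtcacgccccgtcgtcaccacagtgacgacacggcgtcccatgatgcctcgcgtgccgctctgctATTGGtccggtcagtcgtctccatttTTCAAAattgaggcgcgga

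The TGACGTCA match began 26 bases before the start in Kif5c, 33 in Klc1 and 86 in Kif17. The GC box GGGCGG was present in 24 of 40 kinesin windows, against 32.7% of all windows, and occurred 3 times each in Klc1 and Kif1c. The CCAAT box (CCAAT) was found in 19 of 40 windows, of which 9 were among the 13 mitotic windows, against 33.9% of all windows. TTTGAA, the core of the cell cycle homology region of many genes of dividing cells, was found in 8 of 40 windows, 5 of them mitotic, against 16% of all windows. It lay 19 bases before the start in Kif11 and in Kif15, and 17 bases before it in Kif22. TATAAA was found in 5 and CACGTG in 2 of the 40 windows, against 12.4% and 6.02%. Windows of the same gene can overlap, as those of Kif9 and of Kif1b do, and the same match then counts in each. The TATAAA of Kif9 is such a match. The motifs share no bases in the windows shown. A match is a description of letters and does not show that a factor binds there.

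Counts on genes ranged from 11138676 to 20594364 per library, and 3 counts, taken as the smallest level that can be told from 0, equalled 0.146 to 0.269 CPM (counts scaled to library size). A gene was tested when its CPM was above 1 in at least 2 libraries, which 37 kinesin genes met, among 16806 genes in all. Of the 37, 24 were above 1 CPM in all 10 libraries. The 10 kinesin genes under the filter were Kif12 and Kif2b, which had no count in any library, and Kif18b, Kif2c, Kifc1, Kif28, Klc3, Kifc5b, Kif7 and Kif20a, with 8 to 62 counts over all 10 libraries together. Kifc1 and Kifc5b are near-identical copies whose reads can be split between them, so that their counts are uncertain. Summed over all 47 genes, kinesins came to 6238 ± 177 CPM (SD, n = 5) in dorsal and 6390 ± 173 CPM in ventral libraries, and these ranges overlapped.

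Levels of different genes were compared as CPM per kilobase of exonic length, the length being the union of all annotated exons. Kif5c, a neuronal kinesin-1 heavy chain, was the most abundant at 240 ± 22.5 CPM per kilobase (mean ± SD over 10 libraries). Kif21a, a kinesin-4 motor that regulates microtubule growth, followed at 122 ± 34.5, and its range of 86.1 to 212 touched that of Kif5c, 207 to 271, through 1 ventral library. Kif5a, the other neuron-specific heavy chain, was at 90.7 ± 13.8 CPM per kilobase and Klc1, the main neuronal light chain, at 70.8 ± 15.6. From Kif21a down to Klc1, each gene overlapped across libraries with the next in this order.

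The vesicle motor Kif1a was next at 60.5 ± 6.96 CPM per kilobase, followed by the ubiquitous heavy chain Kif5b at 51.0 ± 6.79. Kif1b was at 48.6 ± 2.85 and the kinesin-2 motor Kif3a at 48.6 ± 7.84, and the levels of Kif1a, Kif5b, Kif1b and Kif3a overlapped across libraries. Kif1bp followed at 35.6 ± 4.84, Kif2a, which takes tubulin off microtubule ends, at 33 ± 5.41, and the dendritic motor Kifc2 at 28.4 ± 5.05, with overlapping ranges. The light chain Klc2 completed the 12 highest at 15.4 ± 4.82. None of the mitotic kinesins had a mean above that of Kif22, at 0.387 ± 0.137 CPM per kilobase, and Kif20b and Kif11 were next at 0.369 ± 0.417 and 0.337 ± 0.290.

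**Figure D1:**
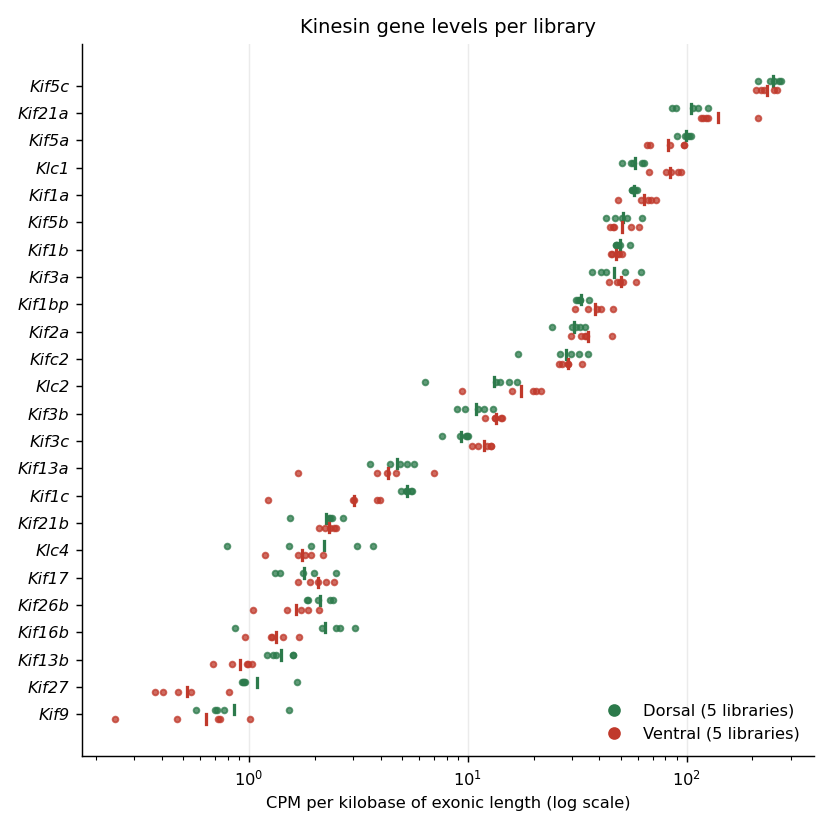
Level of each kinesin gene with more than 1 CPM in all 10 libraries, in CPM per kilobase of exonic length on a log axis. Points are libraries (green dorsal, red ventral) and short lines are group means. Kif5c stands highest, at a mean of 240, and the axon transport motors and Klc1 fill the upper part of the range, with Kif9 lowest at 0.747.

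Dorsal and ventral libraries were compared with edgeR's quasi-likelihood test over all 16806 genes, and a gene was called enriched at a Benjamini-Hochberg adjusted p below 0.05 together with group mean CPM values, each plus 1, whose log2 ratio lay beyond 0.58 in either direction, a fold of about 1.5. Most kinesins were not called. Of the 37, 4 were called dorsal-enriched, Kif1c, Kif13b, Kif27 and Kif24, against 15.7% of all genes, and 1, Kif19a, was called ventral-enriched, against 9.85%. At an adjusted p below 0.05 without the fold rule, 4 were higher in dorsal libraries (19.0% of all genes) and 3 were lower, Klc1, Kif3c and Kif19a (14.6% of all genes). The dorsal libraries all lay above the ventral ones for 3 kinesins (9.81% of all genes) and all below for 2 (8.36%). These shares are over all tested genes, noncoding ones included, while the kinesin genes are all protein-coding. Among protein-coding genes alone, 5 kinesins and 1665 genes in all were called dorsal-enriched. Called ventral-enriched there were 1 kinesin and 1292 genes in all. The median log2 fold change of the 37 was -0.027, against -0.0044 over all genes, with a range from -1.94 to 2.63. For the 32 genes not called, missing the rule does not show that the groups were equal. Kif24 and Kif19a passed the expression filter only through the group where they were high, so that their calls support nothing further.

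**Figure D2:**
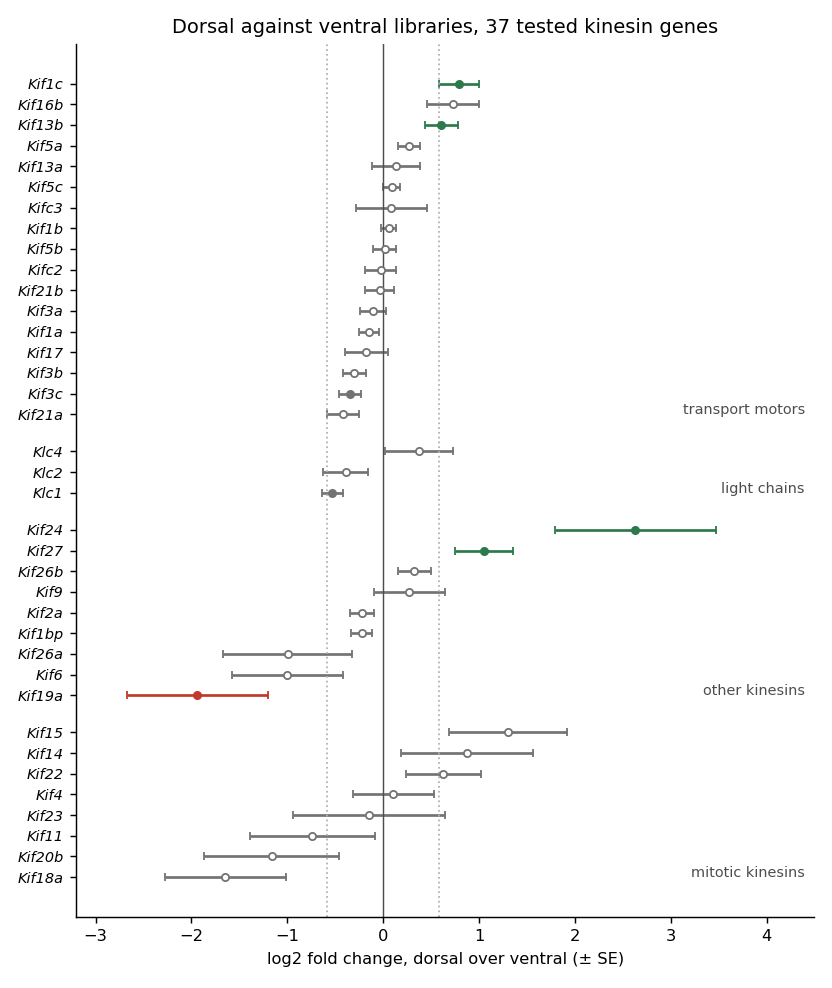
Log2 fold change, dorsal over ventral, of the 37 tested kinesin genes with standard errors, grouped by role. Filled points have an adjusted p below 0.05, green and red points were called dorsal-enriched and ventral-enriched, and dotted lines mark the log2 threshold of 0.58. The transport motors cluster near 0 except Kif1c, Kif16b and Kif13b on the right, and the weakly expressed mitotic kinesins spread widely with long bars.

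By role, 2 of 17 tested transport motors were called dorsal-enriched and none ventral-enriched, and the median of their log2 fold changes was 0.015. None of the 3 tested light chains was called, with a median of -0.39. None of the 8 tested mitotic kinesins was called, with a median of -0.018. Of the 9 tested other members, 2 were called dorsal-enriched and 1 ventral-enriched. Their median was -0.22. All counts stand beside the shares over all genes given above, 15.7% dorsal and 9.85% ventral. Bulk libraries such as these cannot separate fewer cells of a type from less RNA per cell.

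Kif1c (ENSMUSG00000020821, chr11:70700548-70731964, plus strand) encodes a kinesin-3 motor of vesicles and endosomes. Its CPM, scaled between libraries by TMM, was 35.9, 37.9, 38.2, 40.7 and 40.1 in the dorsal libraries, and 21.8, 8.89, 28.8, 22.1 and 28.0 in the ventral libraries. The dorsal libraries were tightly grouped and all lay above the highest ventral one, and ventral replicate 2 was the lowest. Kif1c was 1.73-fold higher in dorsal libraries (log2 fold change 0.79 ± 0.21 SE, quasi-likelihood adjusted p = 0.0109). As a share of kinesin-3 counts per kilobase it made up 4.4 ± 0.29% in dorsal and 2.51 ± 0.95% in ventral libraries.

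Kif13b (ENSMUSG00000060012, chr14:64647265-64809617, plus strand) encodes another kinesin-3 motor, also called GAKIN, known to bind the scaffold protein Dlg1. The dorsal values were 20.7, 16.8, 17.2, 15.7 and 20.7 CPM, and the ventral values 12.9, 8.89, 13.5, 12.8 and 11.0 CPM. The groups did not overlap. The gene was 1.52-fold higher in dorsal libraries (0.61 ± 0.17, quasi-likelihood adjusted p = 0.0155), but its log2 ratio of 0.586 stood just inside the threshold of 0.58. Without dorsal replicate 1 or 5 or ventral replicate 2 or 5 its log2 fold change was 0.57, 0.57, 0.54 and 0.57 and the call was lost on the fold rule, with an adjusted p between 0.0243 and 0.0463. With no expression filter it was at 0.60 and did not pass the test (quasi-likelihood adjusted p = 0.0569). Kif13b was called in 16 of 22 alternative analyses.

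Kif16b, a kinesin-3 motor of early endosomes, stood just outside the call. Its dorsal values were 27.7, 7.86, 19.6, 23.6 and 22.8 CPM and its ventral values 11.5, 15.3, 8.70, 11.6 and 12.9 CPM. The other dorsal libraries lay above all ventral ones, while dorsal replicate 2 lay below them all. The log2 fold change was 0.73 ± 0.27 with a quasi-likelihood adjusted p of 0.0509. Without dorsal replicate 2 it was 0.95, with an adjusted p of 0.00196, and Kif16b was called dorsal-enriched in 8 of 22 alternative analyses.

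The more abundant kinesin-3 motors showed small differences. Kif1a, which carries synaptic vesicle precursors and dense-core vesicles, was at 536 ± 13.0 CPM dorsally and 593 ± 85.3 CPM ventrally (log2 fold change -0.15, 95% interval -0.35 to 0.053, quasi-likelihood adjusted p = 0.281). Kif1b, whose isoforms carry mitochondria and synaptic vesicle precursors, was at 873 ± 56.6 and 838 ± 41.5 CPM (0.058, -0.096 to 0.21, quasi-likelihood adjusted p = 0.60). Kif13a, a motor of endosomes, was at 38.6 ± 6.61 and 34.8 ± 15.4 CPM (0.14, -0.36 to 0.63, quasi-likelihood adjusted p = 0.709). The intervals of Kif1a and Kif1b lie within the fold threshold, while that of Kif13a does not. Across the 6 tested kinesin-3 genes, 5 fitted values were above 0, with a median of 0.37, although Kif1b was at -0.12 after correction for GC content and length.

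**Figure D3:**
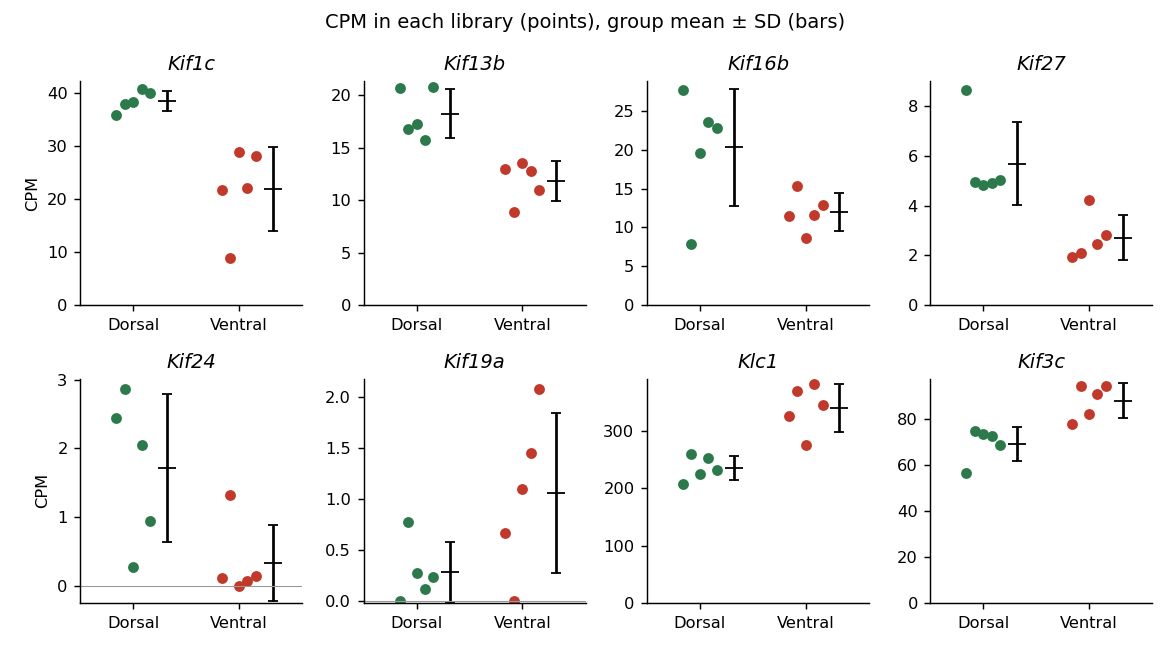
CPM in each library of the 5 called kinesins and of Kif16b, Klc1 and Kif3c. Green points are dorsal and red points ventral libraries, and the bars give the group mean ± SD. Groups are separate for Kif1c, Kif13b, Kif27, Klc1 and Kif3c, whereas 1 dorsal library falls below all ventral ones for Kif16b and the groups overlap for Kif24 and Kif19a.

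Among the kinesin-1 heavy chains no difference passed the test in the main analysis. Kif5c was at 1768 ± 161 CPM dorsally and 1663 ± 159 CPM ventrally (log2 fold change 0.088 ± 0.091 SE, 95% interval -0.090 to 0.27, quasi-likelihood adjusted p = 0.479). Kif5b was at 409 ± 59.2 and 405 ± 55.6 CPM (0.015 ± 0.12, -0.22 to 0.25, quasi-likelihood adjusted p = 0.937). These intervals lie within the fold threshold. Kif5a was at 634, 732, 713, 699 and 686 CPM in dorsal and 476, 461, 678, 585 and 678 CPM in ventral libraries. Ventral replicates 1, 2 and 4 lay below every dorsal library and replicates 3 and 5 lay among them (0.27 ± 0.12, 0.040 to 0.49, quasi-likelihood adjusted p = 0.0875). Once GC content and length were corrected for, Kif5a was at 0.35 and Kif5b at -0.38 (quasi-likelihood adjusted p = 0.0297 and 0.0116). The value of Kif5b then lay outside its interval above, while the correction moved the median of all genes to -0.18.

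The composition of kinesin-1 overlapped between the regions. Kif5c made up 62.1 ± 1.7% of heavy chain counts per kilobase in dorsal and 63.7 ± 3.4% in ventral libraries, Kif5a 25 ± 2.7% and 22.5 ± 3.6%, and Kif5b 12.9 ± 1.2% and 13.9 ± 1.4%. The ratio of Kif5a to Kif5c per kilobase was 0.404 ± 0.054 in dorsal and 0.356 ± 0.073 in ventral libraries, with overlapping ranges (exact permutation test, two-sided p = 0.278, adjusted p = 0.362 over 6 ratios).

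Of the light chains, Klc1 was lower in dorsal libraries, by the test but not by the fold rule. Klc1 (ENSMUSG00000021288, chr12:111758849-111807844, plus strand) was at 207, 261, 226, 253 and 232 CPM in dorsal libraries and at 327, 371, 275, 383 and 347 CPM in ventral libraries. Every ventral library lay above every dorsal one, with ventral replicate 3 closest to them. Klc1 was 1.44-fold lower in dorsal libraries (log2 fold change -0.53 ± 0.11, quasi-likelihood adjusted p = 0.00256), the smallest adjusted p of the kinesin genes, and its log2 ratio of -0.53 lay under the fold threshold. With a covariate for read pairs outside genes, described further on, it was at -0.42 (adjusted p = 0.260). Without ventral replicate 3 the log2 fold change was -0.60 and Klc1 was called ventral-enriched. The heavy chain Kif5c, measured in the same libraries, was not lower in dorsal ones, but the difference between the changes of the 2 genes was not tested.

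Klc2, a second light chain of neurons, was at 26.4, 55.9, 69.6, 58.1 and 63.7 CPM in dorsal and 82.1, 89.5, 39.1, 84.7 and 65.9 CPM in ventral libraries. The groups overlapped, with dorsal replicate 1 and ventral replicate 3 low (-0.39 ± 0.24, quasi-likelihood adjusted p = 0.214). Klc4 was at 5.25 ± 2.81 and 4.18 ± 0.88 CPM (0.38 ± 0.35, quasi-likelihood adjusted p = 0.430). Klc1 made up 79.3 ± 5.6% of light chain counts per kilobase in dorsal and 81.5 ± 2.8% in ventral libraries. The ratio of Klc1 to Klc2 per kilobase was 4.82 ± 1.84 and 5.07 ± 1.27 (exact permutation test, two-sided p = 0.659).

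**Figure D4:**
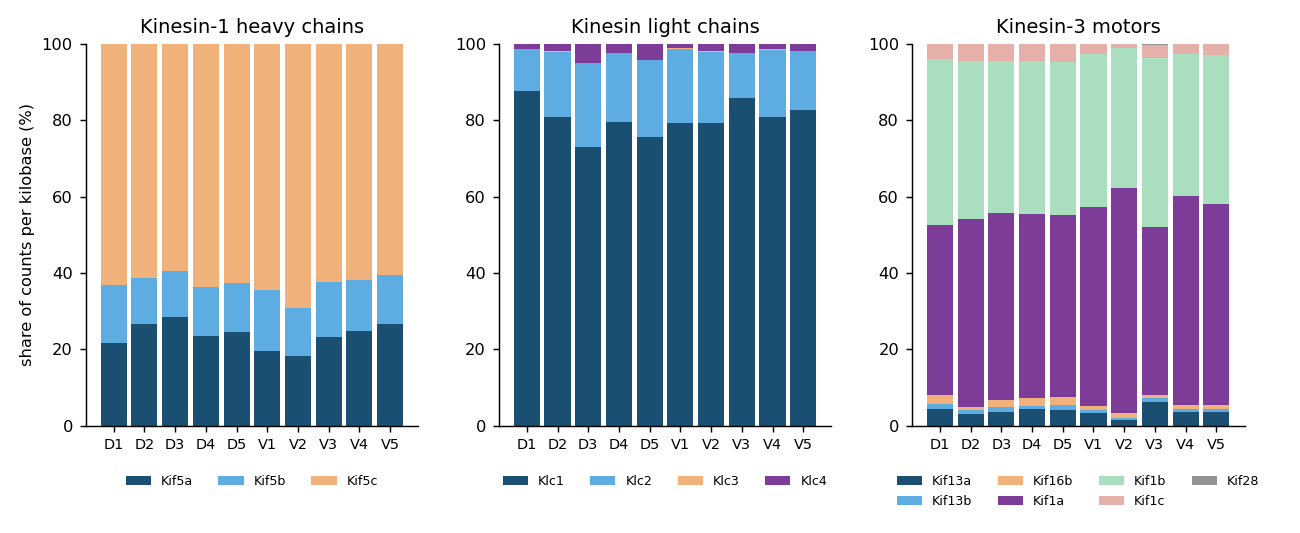
Share of each gene in the counts per kilobase of its subfamily, in percent, for every dorsal (D1 to D5) and ventral (V1 to V5) library. Kif5c takes 62.1% of kinesin-1 heavy chain and Klc1 79.3% of light chain counts on average in dorsal libraries, and the Kif1c band of kinesin-3 is wider in dorsal (4.4%) than in ventral libraries (2.51%).

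The 4 kinesin-2 genes all had fitted values below 0, with a median log2 fold change of -0.24, except that Kif3a was at 0.50 and Kif3b at 0.089 with that same covariate. Of the 4, 1 passed the test. Kif3c, a kinesin-2 motor of neurons, was at 56.3, 74.6, 73.2, 72.7 and 68.6 CPM in dorsal and 77.8, 94.4, 82.2, 90.8 and 94.4 CPM in ventral libraries. The groups did not overlap, although dorsal replicate 2 and ventral replicate 1 were close. Kif3c was 1.27-fold lower in dorsal libraries (-0.34 ± 0.11, quasi-likelihood adjusted p = 0.0309), under the fold threshold, and its adjusted p stayed below 0.05 in 12 of 22 alternative analyses. Of its exonic length 40.7% is shared with genes on the other strand, and where counting does not use strand such reads cannot be assigned, so that its level is uncertain.

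Its partner Kif3a was at 168 ± 36.2 CPM dorsally and 180 ± 19.2 CPM ventrally (-0.11 ± 0.14, quasi-likelihood adjusted p = 0.577). Kif3b was at 61.8 ± 9.31 and 75.8 ± 5.29 CPM (-0.30 ± 0.12, quasi-likelihood adjusted p = 0.0688), and the groups overlapped through dorsal replicate 1. Kif17, a dendritic motor that carries NMDA receptor subunits, was at 8.20 ± 2.23 and 9.48 ± 1.40 CPM (-0.18 ± 0.22, quasi-likelihood adjusted p = 0.569). The ratio of Kif3a to Kif3b per kilobase was 4.26 ± 0.53 and 3.73 ± 0.22 (exact permutation test, two-sided p = 0.103, adjusted p = 0.349).

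The last transport motors belong to kinesin-4 and kinesin-14. Kif21a was at 809, 582, 558, 733 and 693 CPM in dorsal and 1371, 791, 814, 754 and 767 CPM in ventral libraries. Ventral replicate 1 stood far above the other ventral libraries, and the groups overlapped through dorsal replicate 1 (-0.42 ± 0.16, quasi-likelihood adjusted p = 0.0641). Without ventral replicate 1 the log2 fold change was -0.21. Kif21b was at 27.5 ± 5.21 and 28.3 ± 2.01 CPM (-0.034 ± 0.15, quasi-likelihood adjusted p = 0.882).

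Kifc2 was at 111 ± 27.6 CPM dorsally and 113 ± 10.9 CPM ventrally (-0.027 ± 0.16, quasi-likelihood adjusted p = 0.914). Kifc3, a motor directed to the minus end that also acts at cell junctions, was at 3.03 ± 1.70 and 2.99 ± 0.46 CPM (0.087 ± 0.37, quasi-likelihood adjusted p = 0.877), with 27.5% of its exonic length shared with other genes. The ratios of Kif1a to Kif1b, Kif5a to Kif5b and Kif21a to Kif21b also overlapped between the groups (exact permutation tests, adjusted p from 0.349 to 0.362). With 5 against 5 libraries the smallest p of this test is 0.00794. The Kif1a to Kif1b ratio, 1.16 ± 0.08 in dorsal and 1.34 ± 0.23 in ventral libraries, separated when ventral replicate 3 was left out (exact permutation test, adjusted p = 0.0476).

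Among the other members, Kif27 (ENSMUSG00000060176, chr13:58287502-58359122, minus strand) encodes a kinesin-4 protein needed for motile cilia. It was at 8.66, 4.94, 4.84, 4.92 and 5.03 CPM in dorsal and 1.94, 2.11, 4.22, 2.47 and 2.83 CPM in ventral libraries, which were 64 to 92 and 24 to 60 counts. The groups did not overlap, with dorsal replicate 1 well above the rest and ventral replicate 3 nearest to the dorsal ones. Kif27 was 2.07-fold higher in dorsal libraries (log2 fold change 1.05 ± 0.30, quasi-likelihood adjusted p = 0.0173).

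Markers of ependymal cells, which carry motile cilia, moved in the same direction. Of 6 tested ependymal markers 5 were called dorsal-enriched, against 15.7% of all genes (Foxj1, Ccdc153, Tmem212, Rsph1 and Dnah11), Pifo was not (log2 fold change -0.47 ± 0.65), and Mia was under the filter with at most 3 counts and none in 5 libraries. Their summed level was 14.5 to 25.5 CPM dorsally and 6.41 to 8.95 CPM ventrally. Tmem212 was at most at 0.999 CPM and Dnah11 at a mean of 0.51 CPM in ventral libraries, and both passed the expression filter only through dorsal ones. Ccdc153 and Tmem212 each kept their call in 11 of 21 alternative analyses. The part of ependymal cells in the Kif27 difference was not tested.

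Kif24 (ENSMUSG00000028438, chr4:41390745-41464887, minus strand), a depolymerase at the centriole that restrains cilium formation, was near the floor of detection. It had 26, 44, 4, 34 and 12 counts in dorsal and 2, 15, 0, 1 and 3 counts in ventral libraries, or 2.45, 2.86, 0.27, 2.04 and 0.94 against 0.11, 1.32, 0.00, 0.063 and 0.14 CPM. Dorsal replicates 3 and 5 lay inside the ventral range, and ventral replicate 2 inside the dorsal range. Of the ventral libraries only replicate 2 held it above 1 CPM, so that Kif24 passed the expression filter through the group where it was high. The fitted log2 fold change was 2.63 ± 0.84 (quasi-likelihood adjusted p = 0.0214), a size that depends on the count added before taking logs. Without dorsal replicate 2 or ventral replicate 1, 4 or 5 the adjusted p was 0.0515, 0.0525, 0.0570 and 0.0653 and the call was lost.

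Kif19a (ENSMUSG00000010021, chr11:114765388-114790739, plus strand), a depolymerase that sets the length of motile cilia, was the only kinesin called ventral-enriched. It had 0, 12, 4, 2 and 3 counts in dorsal and 12, 0, 13, 23 and 44 counts in ventral libraries, and the groups overlapped through ventral replicate 2, at 0, and dorsal replicate 2. Only 3 libraries, all ventral, held it above 1 CPM, so that it passed the expression filter through the group where it was high. The log2 fold change was -1.94 ± 0.73 (quasi-likelihood adjusted p = 0.0459), and the call was lost in 12 of 21 alternative analyses, among them the DESeq2 test (adjusted p = 0.172) and leaving out any single library except dorsal replicate 2 and ventral replicates 1 and 2, where the adjusted p was 0.0557 to 0.185.

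The other ciliary kinesins did not pass. Kif9 was at 3.68 ± 1.65 CPM dorsally and 2.73 ± 1.24 CPM ventrally (0.27 ± 0.37) and Kif6 at 0.72 ± 0.35 and 1.57 ± 0.94 CPM (-1.0 ± 0.58). Of the more abundant other members, Kif1bp was at 161 ± 8.69 and 187 ± 27.3 CPM (-0.22 ± 0.11, quasi-likelihood adjusted p = 0.128), and Kif26b, an atypical kinesin, at 31.0 ± 3.98 and 24.2 ± 5.85 CPM (0.32 ± 0.17, quasi-likelihood adjusted p = 0.163). Kif2a was at 195 ± 24.0 and 227 ± 38.5 CPM (-0.22 ± 0.13, quasi-likelihood adjusted p = 0.197). Once GC content and length were corrected for, the log2 fold change of Kif2a was -0.96 and it was called ventral-enriched (adjusted p = 1.5e-04), while that correction moved the median of all genes to -0.18. Of the exonic length of Kif2a 19.2% is shared with Dimt1 on the other strand.

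The mitotic kinesins had group means of a few CPM at most, and none was called. The 3 with the highest level per kilobase were Kif22, Kif20b and Kif11. Kif22, a chromosome-binding motor, was at 2.26 ± 0.30 CPM dorsally and 1.54 ± 0.77 CPM ventrally (0.63 ± 0.39, quasi-likelihood adjusted p = 0.225). Kif20b, a motor of cytokinesis, was at 1.57 ± 1.28 and 3.56 ± 3.85 CPM (-1.16 ± 0.70, quasi-likelihood adjusted p = 0.217).

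Kif11, which slides spindle microtubules apart, was at 0.94, 6.82, 0.14, 0.60 and 0.31 CPM in dorsal and 2.77, 4.75, 3.04, 3.67 and 2.08 CPM in ventral libraries. Dorsal replicates 1, 3, 4 and 5 lay below all ventral libraries and dorsal replicate 2 above them (-0.74 ± 0.65, quasi-likelihood adjusted p = 0.403). Leaving it out gave a log2 fold change of -2.69 and an adjusted p of 0.00123, and the gene was then called ventral-enriched. Kif18a, which trims spindle microtubules, had a log2 fold change of -1.65 ± 0.63 and an adjusted p of 0.0538 by the quasi-likelihood test, just outside the threshold. The other cell cycle genes, from a list of 15, were similarly low: 9 were tested, with 3 called dorsal-enriched (Ccna2, Aurkb and Bub1), against 15.7% of all genes, and none ventral-enriched, against 9.85%. Aurkb and Bub1 were at most at 0.26 and 0.18 CPM in ventral libraries, at the floor, and passed the expression filter only through dorsal libraries, so that their calls support nothing further. The summed level of the list was 15.9 to 27.4 CPM dorsally and 15.1 to 24.3 CPM ventrally.

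The libraries of the regions also differed in the share of read pairs that fell outside genes. This share was 21.8 to 33.9% in dorsal and 11.6 to 19.3% in ventral libraries, without overlap, so that it cannot be told apart from the region. With this share as a covariate the log2 fold change was 0.65 for Kif1c, 0.57 for Kif13b, 1.23 for Kif27, 4.13 for Kif24 and -2.79 for Kif19a, so that the direction was kept, while none of the 37 kinesins was called (adjusted p from 0.0743 to 0.361 for these 5) and 834 genes in all were called dorsal-enriched.

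Oligodendrocyte markers also moved with the dorsal libraries. Of 7 markers 3 were called dorsal-enriched, against 15.7% of all genes (Mobp, Ermn and Mbp), 4 were not (Mog, Mag, Cnp and Opalin), none was at 0 in any library, and their summed level was 608 to 836 CPM dorsally and 319 to 541 CPM ventrally. Mbp, at a log2 ratio of 0.5801, stood just inside the threshold of 0.58 and kept its call in 12 of 22 alternative analyses. Ermn went from a log2 fold change of 0.95 to 0.029 with the GC and length correction and lost its call. Of 6 astrocyte markers, Gfap, Aqp4 and Slc1a3 were called dorsal-enriched and Aldh1l1 ventral-enriched, Aldoc was lower in dorsal libraries under the fold rule and Gja1 did not pass, and their summed level was 276 to 385 CPM dorsally and 236 to 386 CPM ventrally. Of 10 markers of GABAergic interneurons, some of which Drd2-Cre marks, 3 were called ventral-enriched, against 9.85% of all genes (Sst, Pvalb and Lhx6), and 1 dorsal-enriched (Dlx6). Gad1 and Npy were also lower in dorsal libraries at an adjusted p below 0.05, as Klc1, Hap1 and Dctn3 were, Gad2, Slc32a1, Vip and Dlx1 did not pass, none was at 0 in any library, and the summed level was 3530 to 4413 CPM dorsally and 4126 to 5171 CPM ventrally. The part of these cell types in the kinesin, adaptor and dynein differences was not tested.

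The cargo adaptors that link kinesins to vesicles and mitochondria were compared as a list of 28, all tested. None was called dorsal-enriched, against 15.7% of all genes, and 2 were called ventral-enriched, against 9.85%, and the median of the list was -0.042 on the log2 scale. Hap1, which joins kinesin-1 and dynactin to vesicles, was at 15.8 to 17.3 CPM dorsally and 27.8 to 34.8 CPM ventrally, without overlap (-0.96 ± 0.13, quasi-likelihood adjusted p = 2.3e-04). Grip1, which links Kif5 to AMPA receptors, was at 10.5 to 27.5 and 18.7 to 42.2 CPM, with overlap (-0.75 ± 0.25, quasi-likelihood adjusted p = 0.0303). The call of Grip1 was kept in 13 of 22 alternative analyses and that of Hap1 in 21. The adaptors Kidins220 and Ppfia2 were higher in dorsal libraries at an adjusted p below 0.05 without reaching the fold rule (0.40 ± 0.12 and 0.28 ± 0.10), and Ppfia2 was at -0.18 after the GC and length correction.

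Dynein and dynactin, the motor complex of the opposite direction, were compared as a list of 35 genes with regulators and adaptors, of which 32 were tested. None was called dorsal-enriched, against 15.7% of all genes, and 2 were called ventral-enriched, against 9.85%, and the list had its median at -0.17 on the log2 scale. With the GC and length correction the median of the list moved to -0.45 and that of all genes to -0.18. Dctn3 and Ndel1 were then called ventral-enriched together with Dync1li1, Dynlt3, Dctn2, Dctn4, Actr10, Capza1, Capza2, Pafah1b1 and Bicd1. Dctn3, a dynactin subunit, was at 60.9 to 108 CPM dorsally and 132 to 180 CPM ventrally, without overlap (-0.71 ± 0.15, quasi-likelihood adjusted p = 0.00290). Ndel1, a dynein regulator, was at 48.7 to 66.4 and 73.0 to 147 CPM, without overlap (-0.69 ± 0.18, quasi-likelihood adjusted p = 0.0111). The call of Dctn3 was kept in 21 of 22 alternative analyses and that of Ndel1 in 20.

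At an adjusted p below 0.05 without the fold rule, 10 of the 32 were lower in dorsal libraries, against 14.6% of all genes, and 1 was higher, against 19.0%. The lower ones were Dctn3, Ndel1, Capza1, Dctn2, Actr10, Dync1i1, Dynlrb1, Actr1a, Dync1li1 and Dync1li2, with log2 fold changes from -0.71 to -0.36, and they include dynein intermediate and light intermediate chains and dynactin subunits. Dynlt1f, a light chain gene with near-identical copies and at most 29 counts, was the higher one (1.18 ± 0.40). It was at most at 0.68 CPM in ventral libraries, so that it passed the expression filter only through dorsal ones. For 7 of the 32 every dorsal library lay below every ventral one, against 8.36% of all genes. The summed level of the 35 genes was 5791 to 6114 CPM dorsally and 6577 to 6946 CPM ventrally. The kinesin transport motors, summed over 18 genes, were at 5285 to 5764 and 5351 to 5680 CPM. Whether dynein and kinesin genes differ in their change was not tested.

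**Figure D5:**
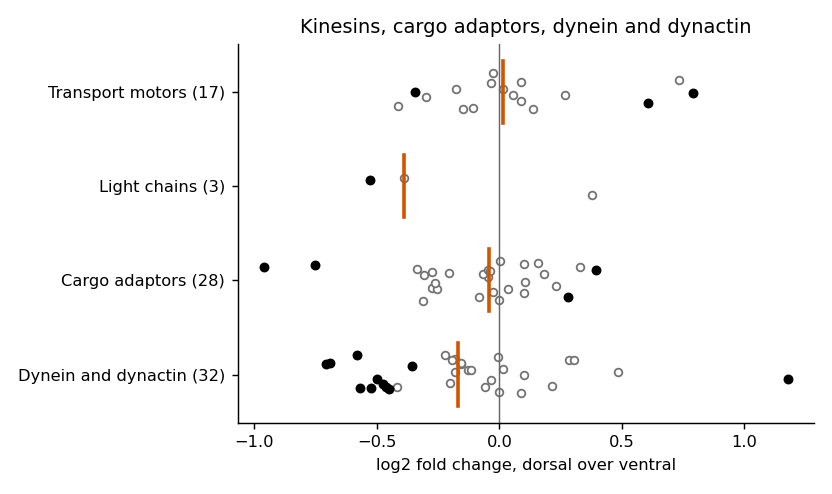
Log2 fold change, dorsal over ventral, of tested transport motors, light chains, cargo adaptors and dynein and dynactin genes, with the number of genes in brackets. Filled points have an adjusted p below 0.05 and orange bars are medians. The medians are 0.015, -0.39, -0.042 and -0.17, and most filled points of the dynein list lie left of 0.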

How the data were processed

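Ribosome-bound RNA was amplified with the Ovation RNAseq V2 kit, made into TruSeq v2 libraries and sequenced as 50 bp paired ends. Per the submitters' processing notes, reads were aligned to GRCm38 with STAR 2.5.2b and counted per gene with HTSeq 0.7.2; the annotation release and the strand setting are not given in the sources used here. The deposited values are raw counts that the authors had not normalized. Groups and replicate numbers came from the sample labels. The kinesin genes, roles and lists were chosen with earlier results of these data known.

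Symbols, biotypes and exonic lengths came from GENCODE M21 (GRCm38), which matched 54809 of 54838 identifiers. Counts were fitted in R 4.3.3 with edgeR 4.0.16 (TMM, quasi-likelihood test with legacy = FALSE). A gene was tested if 2 or more libraries held it above 1 CPM. Levels of single genes are CPM with TMM scaling, and sums over lists are CPM without it. Standard errors were obtained from the log2 fold change and the F statistic, as their quotient with the root of F. No 2 libraries agreed within sampling noise. Since amplified reads carry no molecular identifiers, limits of detection cover counting error only. Where nothing says that pools came from separate litters or days, p-values measure the spread between these pools.

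The named genes were those called, the 12 highest per kilobase, every tested transport motor and light chain, the 3 highest mitotic kinesins and, from the adaptor and dynein lists, called genes. Other genes were named after their values were seen. Alternatives were other scaling factors, filters and tests (DESeq2 1.42.0), a replicate block, a GC and length correction (mgcv 1.9.3), a covariate for read pairs outside genes, protein-coding genes alone, each library left out and, added after seeing the data, the dispersions of edgeR 3. On data simulated from the dorsal against ventral comparison over 16806 genes, 43 of 100 genes changed by 1 on the log2 scale and 72 of 100 changed by 2 were called, with 11 of 16606 unchanged genes called. Sequences are from RefSeq; those of proteins were not used here.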

Additional observations from a re-analysis of the deposited data

Results flagged for a closer look

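In 74 combinations of a tested kinesin gene and a group of 5 libraries, the gap between the highest or lowest library and its nearest neighbour exceeded 0.71 of the group's range (Dixon's test) in 7, where chance gives about 1 in 20. Of the 7, 3 were in dorsal replicate 1. Kif27 was at 8.66 CPM there against 4.84 to 5.03 in the other dorsal libraries, Kif9 at 6.59 against 2.45 to 3.31, and Kif1b at 970 against 835 to 874. Dorsal replicate 2 held 6.82 CPM of Kif11 against 0.14 to 0.94 in the others, and 1.69 CPM of Kif26a against 0.19 to 0.39. Ventral replicate 1 held 1371 CPM of Kif21a against 754 to 814, and ventral replicate 2 held 1.32 CPM of Kif24 against 0.00 to 0.14.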

How the results depend on the processing

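Kif1c and Kif27 were called in every alternative except the covariate. The kinesins called dorsal-enriched numbered 0 with the covariate and 2 to 4 with 1 library left out, the 2 being without ventral replicate 5. Those called ventral-enriched numbered 2 with no filter, 0 with the all-library filter, DESeq2, the covariate or the edgeR 3 dispersions, 4 with the GC and length correction (Kif19a, Kif2a, Kif20b and Kif18a) and 0 to 3 with 1 library left out (3 without dorsal replicate 2 or ventral replicate 1, 2 without ventral replicate 2, 0 without dorsal replicate 3, 4 or 5 or ventral replicate 4 or 5). Over all genes, dorsal-enriched calls were 1248 with the all-library filter, 834 with the covariate and 1665 among protein-coding genes alone, and ventral-enriched calls 961, 339 and, with the GC and length correction, 3132. The cause was not tested, apart from the fewer genes that the stricter filters tested. Unfiltered, the median of all genes moved to 0.11.

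Deviations of same-numbered libraries correlated at -0.032 to 0.069, and 2 of 5 dorsal libraries correlated best with their own number. Such low correlations cannot show that the pools are unpaired, since dorsal and ventral tissue came from the same mice. The replicate block gave 0 ventral-enriched kinesins (2 with the GC and length correction, where all genes gave 3167) and 4 dorsal-enriched ones.

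The sign of some kinesin values turned. With the GC and length correction, without and with the block, Kif1b was at -0.12 and -0.12, Kif5b at -0.38 and -0.39, Kif5c at -0.051 and -0.045, Kif21b at 0.094 and 0.085 and Kifc2 at 0.075 and 0.066. With the covariate, Kif1a was at 0.038, Kif1bp at 0.0035, Kif21a at 0.17, Kif2a at 0.17, Kif3a at 0.50, Kif3b at 0.089, Kifc3 at -1.22 and Klc4 at -0.85. Kif21b was at 0.0083 and Kifc2 at 0.016 with the all-library filter, Kifc2 at 0.00094 with DESeq2 size factors and 0.00047 among protein-coding genes, and Kifc3 at -0.021 with the block. Leaving out 1 library gave -0.044 to 0.34 for Kif13a, -0.094 to 0.065 for Kif21b, -0.060 to 0.083 for Kif5b, -0.12 to 0.10 for Kifc2, -0.15 to 0.27 for Kifc3, a log2 difference of -0.31 to 0.021 for Klc1 to Klc2 and -0.30 to -0.12 for Kif1a to Kif1b.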
